A study of Mus musculus
Mus spretus with 18 samples.

Results

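Fibroblasts of an F1 hybrid between the mouse strains C57BL/6J (mother) and SPRET/EiJ (father) carry both parental genomes in every nucleus, so that the 2 alleles of a gene are spliced by the same factors. The cells were a line derived from F1 mice and were treated for 4 h with 0.1 μM pladienolide B, and control fibroblasts of the same hybrid received DMSO, the solvent, for 4 h. Poly(A) RNA-seq was carried out on 2 libraries per treatment, which belong to a series of 18 libraries that also covers embryonic stem cells and 6 organs of the hybrid at 8 weeks of age. The comparison described here is that of the C57BL/6J allele with the SPRET/EiJ allele after pladienolide B. It asks which exons were included to a different extent on the 2 alleles when the splicing machinery was impaired. A skipped exon event is an exon together with its 2 flanking exons, and its inclusion level is the percent spliced in (PSI), here given from 0 to 1. Of 46041 events in the allelic table, 45193 were autosomal, and 29742 of these, covering 24110 exons of 6660 genes, had 20 or more junction reads on each allele in each library. These 29742 events were analysed, and the other 15451 were left out.

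Pladienolide B binds the SF3B complex of the U2 small nuclear ribonucleoprotein, the particle that recognises the branch point upstream of the 3′ splice site. When it is blocked, exons are skipped and introns are retained to a degree that differs from site to site. A sequence difference between alleles that weakens a branch point, a splice site or a splicing enhancer acts in cis, and in an F1 hybrid it shows up as an allelic difference in PSI. All 10 fibroblast markers checked, among them Col1a1, Vim and Fn1, lay above 1 TPM (a transcript abundance scaled for length and depth) in all 4 fibroblast libraries. None of the 3 muscle, 3 neuronal, 4 endothelial and 4 pluripotency markers did. Of the epithelial list, Cdh1 reached 8.81 and 8.70 TPM after pladienolide B, while Krt8 was at 0 and Epcam at 0.0349 and 0.0290 TPM. Of the leukocyte list, Cd68 reached 6.91 and 8.83 TPM, while Ptprc and Cd3e were at or near 0.

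Depth was similar in both libraries. Summed over the events of the table, the reads assigned to C57BL/6J numbered 41.9 and 48.6 M (M, 1000000 junction reads) and those assigned to SPRET/EiJ 36.1 and 41.7 M, so that 53.8% of the reads of either library were on C57BL/6J. A read that belongs to several events is counted in each. For the analysed events the median was 196 reads per allele and library. The median share of C57BL/6J reads was 50.1% over all analysed events. Textbook imprinted genes with 200 or more reads checked which allele is the maternal one. In the 5 measured genes of a short list that are maternally expressed (Grb10, Igf2r, Meg3, Rian and Slc22a18), between 95.9% and 99.96% of the reads carried the C57BL/6J allele. In the 3 paternally expressed genes (Igf2, Impact and Mest) this share was between 0.158% and 1.22%. Another 7 genes with a known parent of origin, from a wider list of genes imprinted at least in some tissues, had reads from both alleles, from 40.8% (Inpp5f) to 64.5% (H13) on C57BL/6J. Of the X-linked reads, which were left out, 99.1% carried C57BL/6J.

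Most exons were included alike on both alleles. PSI was above 0.9 in 84.6% of events on C57BL/6J and in 84.7% on SPRET/EiJ. The median absolute PSI difference between alleles was 0.0119, and the median difference between the 2 libraries was 0.00756 for C57BL/6J and 0.00734 for SPRET/EiJ. An event was called divergent when its adjusted p-value was under 0.05 (quasi-binomial model of inclusion against skipping reads, dispersion moderated with limma, Benjamini-Hochberg over all events) and its mean PSI differed by at least 0.1. This held for 830 of 29742 events (2.79%), in 601 genes. They were evenly divided, 416 with higher inclusion on C57BL/6J (1.40%) and 414 with higher inclusion on SPRET/EiJ (1.39%). The PSI difference was at least 0.2 in 525, at least 0.3 in 318 and at least 0.5 in 107 of the called events. In 811 of the 830 called events both C57BL/6J values lay on one side of both SPRET/EiJ values, against 31.2% of all events. An exact permutation test of 2 against 2 values cannot fall below p = 0.333, so all calls rest on the model, which borrows the spread from all events. Limma on the log2 odds of inclusion, with 0.5 added to each count, called 271 events, 260 of which were among the 830. On the events with enough reads in both pladienolide B and DMSO, a joint fit called 615, and 406 without replicate 1 and 336 without replicate 2 of the pladienolide B libraries, where the remaining library was assumed to vary like the DMSO ones.

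**Figure D1:**
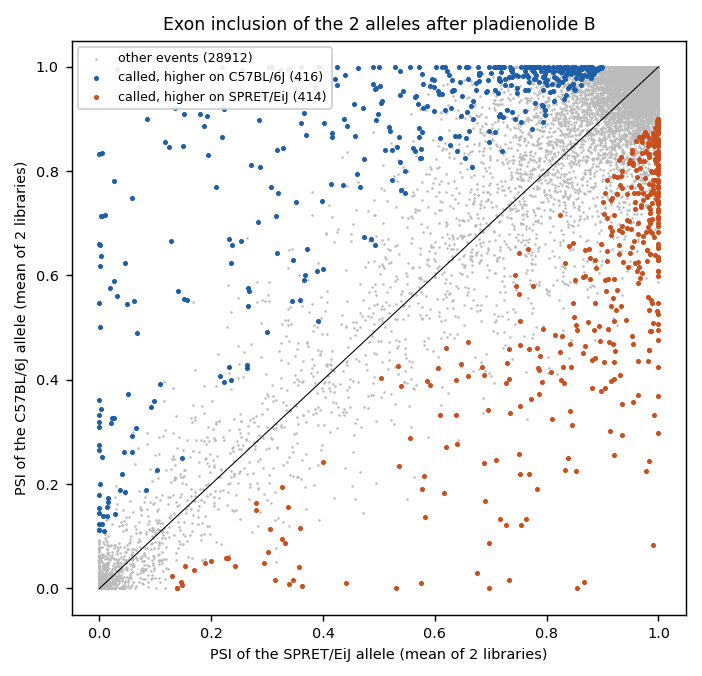
Mean PSI of the SPRET/EiJ allele (x axis) and of the C57BL/6J allele (y axis) after pladienolide B, 1 point per event and 2 libraries per mean, with the diagonal of equal inclusion. Blue points are the 416 events called with higher inclusion on C57BL/6J and orange points the 414 called with higher inclusion on SPRET/EiJ, and most of the other events sit in the upper right corner, where both alleles include the exon.

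Of the 830 called events, 255 had a PSI above 0.9 on C57BL/6J and 275 on SPRET/EiJ. By the mean PSI of both alleles, which a large allelic difference itself draws toward the middle, the share of called events was highest at intermediate inclusion. Of the 25227 events with a mean PSI of 0.9 or more, 0.595% were called. The share was 17.9% of 2089 events with a mean PSI between 0.7 and 0.9, 25.5% of 600 between 0.5 and 0.7 and 22.5% of 347 between 0.3 and 0.5. It fell to 15.1% of 372 between 0.1 and 0.3 and to 1.81% of 1107 below 0.1, where a difference of 0.1 is hard to reach. Called exons were as long as the others, with a median of 114 bp in both the 779 called and all 24110 exons, and 41.3% of the called and 41.3% of all exons had a length divisible by 3. Of the called exons, 16 were 30 bp or shorter (2.05%, against 1.36% of all exons). The introns beside them were longer, with medians of 2146 bp upstream and 1814 bp downstream, compared with 1584 and 1456 bp over all exons. The smallest of the 4 read numbers of an exon had a median of 111 in called and 144 in all exons. These are descriptions, and no test was made on them. Exons can enter several events that differ in their flanking exons: 440 called exons had a single event. The best covered event of the exon was itself called in 588 of 779 called exons, and in 182 it differed by less than 0.1 between alleles. In these, the called event had other flanking exons than the best covered one. Which junction carried the difference was not examined. Just below the read minimum (15 to 19 reads in the smallest cell) 2062 events had a median absolute difference of 0.0658, and just above it (20 to 24 reads) 1698 events had one of 0.0476.

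To name the exons with the largest allelic differences, only called events in which the alleles did not overlap were kept. They were ranked by the smaller of the 2 within-library differences, 1 exon per gene, and the first 15 in each direction are described. All 30 lie in protein-coding genes. Their PSI differences ranged from 0.591 to 0.965, their lengths from 3 to 601 bp, and 11 had a length divisible by 3. The largest adjusted p among them was 3.38e-04. Limma on the same reads called each of the 30 exons too, which is no independent check of exons chosen for large differences. The values of every library are given for the leading ones, with the mean difference (C57BL/6J minus SPRET/EiJ) ± SD of the within-library differences (n = 2).

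Among the 15 exons with higher inclusion on C57BL/6J, 5 with a mean SPRET/EiJ PSI of at most 0.0854 in an event with no better covered alternative are given first. In Mrps17, a protein of the small subunit of the mitochondrial ribosome, an 80-bp exon (chr5:129715684-129715763, mm10, plus strand) had PSI values of 0.848 and 0.822 on C57BL/6J. They were 0.00190 and 0.00582 on SPRET/EiJ, a difference of 0.831 ± 0.0208 (adjusted p = 1.55e-122). This exon was included on 1 allele only, apart from traces. A 144-bp exon of Tmem80 (chr7:141331418-141331561) had 0.852 and 0.814 on C57BL/6J and 0 in both SPRET/EiJ libraries. The SPRET/EiJ reads numbered 380, and 3 inclusion reads among them, the limit a count of 0 allows, would give a PSI of 0.00401. In Ifi27, an interferon-induced membrane protein, a 135-bp exon (chr12:103437390-103437524) was included at 0.731 and 0.696 on C57BL/6J and at 0.00321 and 0.00233 on SPRET/EiJ. It was the most deeply covered of these, with 1645 or more reads on each allele in each library. Fut8, the enzyme that adds the core fucose to N-glycans, had a 93-bp exon (chr12:77323845-77323937) with 0.733 and 0.697 against 0.0138 and 0.00449, a difference of 0.706 ± 0.0189. Pld3, a lysosomal nuclease of the phospholipase D family, had a 75-bp exon (chr7:27545188-27545262) with 0.914 and 0.886 against 0.0740 and 0.0968. The groups did not overlap in these 5 exons, as the ranking required.

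In a second set, SPRET/EiJ transcripts kept the exon to a low but measurable extent, at a mean PSI between 0.117 and 0.322. Pcdh18, a protocadherin of the cell surface, had a 164-bp exon (chr3:49753284-49753447) with no skipping read on C57BL/6J, where 92 reads allow a PSI down to 0.939. On SPRET/EiJ its PSI was 0.303 and 0.135, a difference of 0.781 ± 0.119 (adjusted p = 2.79e-08). The gene 4930453N24Rik had 0.990 and 1 on C57BL/6J against 0.247 and 0.263 on SPRET/EiJ for a 239-bp exon (chr16:64768924-64769162). Tsr1, an assembly factor of the small ribosomal subunit, had 0.855 in both C57BL/6J libraries and 0.105 and 0.128 on SPRET/EiJ for a 104-bp exon (chr11:74898377-74898480). Only 17.1% of the reads of this event were on C57BL/6J. Klc1, a light chain of the kinesin motor, had 1 and 0.987 against 0.322 and 0.323 for a 131-bp exon (chr12:111795548-111795678). Eif1a, which takes part in start codon scanning, had 0.964 and 0.846 against 0.229 and 0.155. For Josd2, a deubiquitinase, the difference of 0.759 ± 0.0285 rested on as few as 21 reads.

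In 4 of the 15, another event of the same exon had more reads and differed by less than 0.1. For Cd164, a sialomucin of endosomes and the cell surface, the ranked event had 0.999 and 0.993 against 0.0428 and 0.0192 for a 90-bp exon (chr10:41521918-41522007). Of its reads 98.3% were on C57BL/6J, and only 45 and 66 were on SPRET/EiJ. With the other flanking exons, and at least 3975 reads in every cell, the same exon had 0.996 on C57BL/6J and 0.997 on SPRET/EiJ. Mgp, a matrix protein that inhibits calcification, had 0.980 and 0.976 against 0.20 and 0.215 for a 33-bp exon (chr6:136874267-136874299), with 97.2% of the reads on C57BL/6J. Its main event showed 0.998 on both alleles. The mitotic kinase gene Cdk1 (0.921 against 0.135 on average) and Lmo7, a LIM and PDZ domain protein of cell junctions (1 against 0.309), had main events that differed by 0.0337 and 0.00564. For Lmo7 the ranked event had 163 or more reads in each cell and the other event 251, so that both were well covered, whereas for Cdk1 the numbers were 28 and 480. In all 4 genes the exon was included on both alleles in its best covered event.

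Exons with higher inclusion on SPRET/EiJ were led by Mcfd2, a cargo receptor subunit that exports coagulation factors from the endoplasmic reticulum. Its 132-bp exon (chr17:87258750-87258881) had 0.0948 and 0.0735 on C57BL/6J and 1 and 0.979 on SPRET/EiJ, a difference of -0.905 ± 0.000178. Atg7, the E1-like enzyme of autophagy, had a 53-bp exon (chr6:114672791-114672843) with 0.0234 and 0 against 0.821 and 0.914. Tor1aip1, which encodes the inner nuclear membrane protein LAP1, had 0.00270 and 0 against 0.962 and 0.745 for a 56-bp exon (chr1:156019968-156020023), with 89.3% of the reads on C57BL/6J. In Apobec3, a cytidine deaminase that restricts retroviruses, the C57BL/6J allele had no inclusion read for a 99-bp exon (chr15:79899020-79899118) among 186 reads, which allows a PSI of up to 0.00964. On SPRET/EiJ its PSI was 0.754 and 0.641. The alleles did not overlap in these exons, as the ranking required, but the 2 SPRET/EiJ values of Tor1aip1 were 0.217 apart.

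Among the others, Mdm2, the ubiquitin ligase of p53, had 0.183 and 0.199 on C57BL/6J and 0.775 and 0.789 on SPRET/EiJ for an 85-bp exon (chr10:117709700-117709784). A second Mdm2 exon of 78 bp (chr10:117691145-117691222) had 0.192 and 0.246 against 0.725 and 0.780. Aen, a nuclease induced by p53, had 0.204 and 0.284 against 0.965 and 1 for a 601-bp exon (chr7:78902230-78902830). Dclre1b, the telomere-associated nuclease Apollo, had 0.273 and 0.238 against 0.877 and 0.966 (chr3:103808072-103808237), with as few as 21 reads. Slc39a14, a zinc and manganese importer, had 0.202 and 0.250 against 0.971 and 0.983. Rit1, a Ras-like GTPase, had 0.347 and 0.369 against 0.961 and 0.948. Stx11, a SNARE protein, the zinc finger gene Zfp51 and Ttc23 differed by -0.717 ± 0.0760, -0.628 ± 0.0142 and -0.592 ± 0.0421.

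In 7 of the 30 exons the PSI of both alleles pooled lay more than 0.1 away from the PSI of all reads, which include reads that fit both genomes equally. Hnrnpc, an RNA-binding protein that covers uridine tracts in introns, had 0.141 and 0.126 against 0.767 and 0.761 for a 26-bp exon (chr14:52098015-52098040). Its pooled PSI was 0.202 and that of all reads 0.654. In Spp1, which encodes osteopontin, the exon of 3 bp (chr5:104436901-104436903) had 0.120 and 0.125 against 0.713 and 0.743. Of its reads 99.8% were on C57BL/6J, and the pooled PSI of 0.124 compared with 0.466 in all reads. The same gap was -0.245 for Josd2, -0.197 for Klc1, -0.189 for Slc39a14, -0.168 for Syncrip, an hnRNP protein, and 0.149 for Mcfd2. The part of read assignment in these differences was not tested. When only events within 0.1 of all reads were kept, 759 of 29381 events were called.

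**Figure D2:**
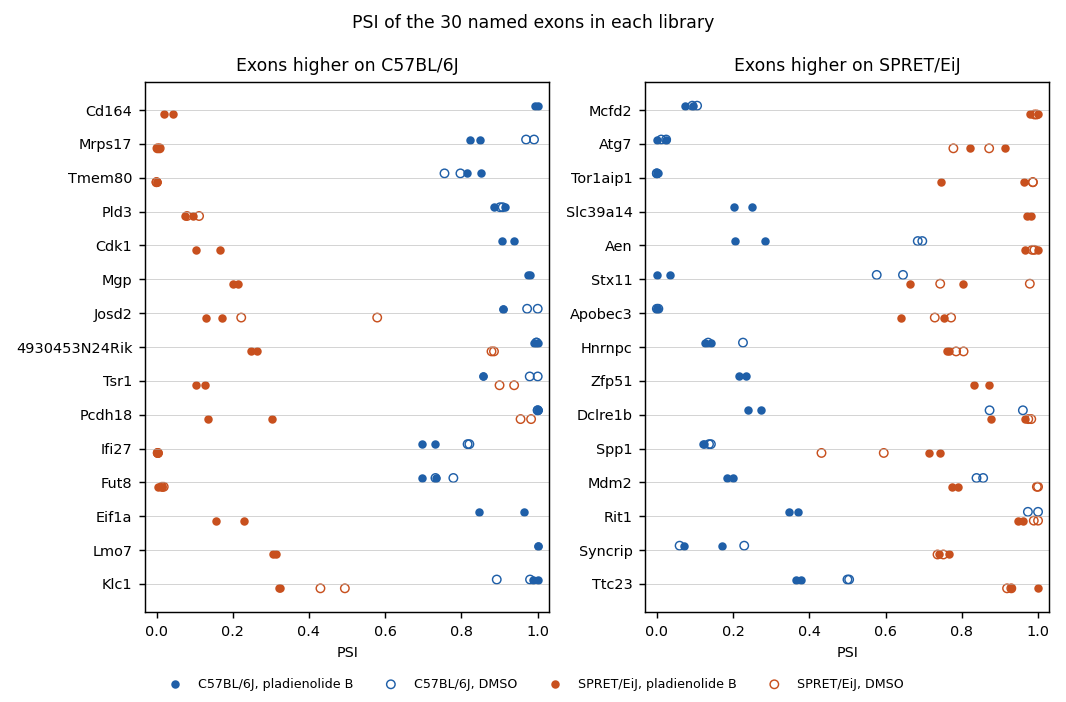
PSI (x axis) of the 30 named exons in each library, with filled points for pladienolide B, open points for DMSO, blue for C57BL/6J and orange for SPRET/EiJ, and 2 libraries per allele and treatment (no open points where DMSO reads were too few or the event was not listed). Filled blue and orange points are apart in all 30 exons, which the ranking required. For Tsr1, Pcdh18, Dclre1b and Rit1 the open points of both alleles lie together near full inclusion.

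The DMSO fibroblasts show how far these differences were there without the compound. In the same fit, 755 of 26332 events (2.87%) were called after DMSO, 396 with higher inclusion on C57BL/6J and 359 on SPRET/EiJ, in 721 of 23298 exons (3.09%). Of the 830 events called after pladienolide B, 554 had enough reads in DMSO, 275 were not in the DMSO table and 1 had too few reads there. Of all 29742 analysed events, 16104 were not in the DMSO table, and 45.9% were listed there. Of the 554, 264 were called after DMSO too, and all 264 had the same direction. Their median absolute difference was 0.274 after pladienolide B and 0.243 after DMSO. The other 290 were called after pladienolide B alone. Of these, 228 had a PSI above 0.9 on both alleles in DMSO, as did 82.0% of all events with enough reads in both treatments. An event called after DMSO cannot have this, because its PSI must differ by at least 0.1. In turn, 205 of the events with enough reads in both treatments were called after DMSO and not after pladienolide B. A call in one treatment and not in the other does not show that the alleles differed more in one of them, which the interaction below tests. Of the 30 named exons 23 had DMSO values, and in 19 of these the DMSO difference was at least 0.1 and had the same sign. In Mcfd2 it was -0.894, in Atg7 -0.807, in Apobec3 -0.748, in Fut8 0.739 and in Tmem80 0.776. The DMSO differences of the 4 others were 0.0705 (Tsr1), 0.0312 (Pcdh18), -0.0617 (Dclre1b) and -0.00771 (Rit1).

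Over the 13585 events with enough reads in both treatments, the median absolute allelic difference was 0.0138 after pladienolide B and 0.00560 after DMSO. It reached 0.1 in 1510 events (11.1%) and 654 events (4.81%), respectively. Thinning the reads of each event to the same number in all 8 allele and library cells gave medians of 0.0142 and 0.00540. PSI was lower after pladienolide B than after DMSO in 63.1% of these events on C57BL/6J and in 61.6% on SPRET/EiJ. Fitted on these shared events alone, 642 events (4.73%) were called after pladienolide B and 470 (3.46%) after DMSO.

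Whether the allelic difference itself changed with treatment was tested by the allele by treatment interaction in a joint fit of all 4 libraries. On the odds scale of the model, 5 of 13585 events (0.0368%) were called with an adjusted p under 0.05 and a change of at least 0.1 in the PSI difference, and 12 were called with the library as a replicate block. Unadjusted, 535 events had p under 0.05. The exons of 4 genes are described. Of these, that of Nedd9, an adhesion scaffold of the Cas family, changed most. Its 102-bp exon (chr13:41318444-41318545) had 0.949 and 0.980 on C57BL/6J and 0.447 and 0.404 on SPRET/EiJ after pladienolide B. In DMSO the values were 0.991 and 0.992 against 0.980 and 0.997. The PSI difference grew by 0.536 ± 0.0266 (SE), and the interaction on the odds scale had an adjusted p of 0.0375. For this exon and those of the next paragraph, the SE is that of the change on the PSI scale. The adjusted p is from the odds scale, so the SE and the p belong to different tests. Only the SPRET/EiJ allele lost the exon by more than 0.1.

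C57BL/6J was the allele that lost inclusion in Cxcl5. In this gene, which encodes a chemokine that attracts neutrophils, an 84-bp exon (chr5:90759967-90760050) fell from 0.990 and 1 to 0.610 and 0.598 on C57BL/6J, with 0.969 and 0.973 on SPRET/EiJ, a change of -0.370 ± 0.0466 (SE, interaction adjusted p = 0.0308). Only 12% of its reads were on C57BL/6J, and a better covered event of this exon differed by -0.00142 between alleles. Ube2n, an E2 enzyme of lysine-63 ubiquitin chains, moved from a difference of 0.0414 in DMSO to -0.0891 (interaction adjusted p = 0.0164). Cdc26, a subunit of the anaphase-promoting complex, was the 1 gene of the 4 whose difference shrank. Its 97-bp exon (chr4:62404456-62404552) fell from 0.978 in both libraries to 0.712 and 0.787 on C57BL/6J. On SPRET/EiJ it was at 0.105 and 0.0967 in DMSO and at 0.0560 and 0.0596 after the treatment, a change of -0.186 ± 0.0305 (SE, interaction adjusted p = 0.0375). Leaving out 1 library at a time gave 1 call without DMSO replicate 1, 3 without PladB replicate 2 and 5 without either of the other libraries. Limma on the log2 odds called 0 events, with 894 at an unadjusted p under 0.05.

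On the odds scale, a fall from an inclusion near 1 has a wide error where the skipping reads in DMSO are few. The PSI scale also asks a different question, because the same ratio of odds gives a larger PSI difference at intermediate inclusion than near 1. The part of either in the number of calls was not tested. The interaction was also tested on the PSI scale, with the same dispersions, a test chosen after the data were seen. It called 143 events (1.05%) in 126 genes, among them the 5 called on the odds scale. The absolute allelic difference was larger after pladienolide B in 122 (0.898%) and smaller in 21 (0.155%). Of the 122, 109 had a PSI above 0.9 on both alleles in DMSO, while 82.0% of all shared events did. The error of this test is smallest near PSI 1, and a difference has most room to grow from a small start. The choice of the 122 therefore favours such events. After pladienolide B, 71 of the 122 were higher on SPRET/EiJ and 51 on C57BL/6J. PSI fell by at least 0.1 on C57BL/6J alone in 55, on SPRET/EiJ alone in 40 and on both alleles in 26. Over all 13585 shared events these numbers were 557, 494 and 697, and 11837 events fell by 0.1 on neither allele. The division of the 122 is a description of called events and was not tested. Without PladB replicate 2 the number of calls was 73, without any other library it was between 104 and 154, and 46 exons were called whichever library was left out.

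The exons with the largest such growth were mostly included on both alleles in DMSO. In 4930453N24Rik, which changed by 0.625, SPRET/EiJ was at 0.885 and 0.879 in DMSO, and the alleles already differed there by 0.115, past the threshold of a call. Pcdh18 changed by 0.750 ± 0.0714 (SE). Its SPRET/EiJ values were 0.955 and 0.983 in DMSO. Tsr1 changed by 0.668 ± 0.0649, with SPRET/EiJ values of 0.90 and 0.938 in DMSO, and 4 exons of this gene were called divergent, all higher on C57BL/6J. Nr3c1, the glucocorticoid receptor gene, had 1 and 0.952 on C57BL/6J and 0.369 and 0.338 on SPRET/EiJ for a 167-bp exon (chr18:39428614-39428780), and all 4 DMSO values were 0.986 or higher. Mapk6, the atypical MAP kinase ERK3, had 1 and 0.991 against 0.387 and 0.286 for a 202-bp exon (chr9:75390167-75390368). The spindle protein gene Fam83d had no skipping read on C57BL/6J and 0.333 and 0.388 on SPRET/EiJ, with as few as 20 reads. In these exons SPRET/EiJ lost more inclusion than C57BL/6J. In Tsr1 the C57BL/6J allele fell too, by 0.134 on average.

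C57BL/6J was the allele that lost more inclusion in other exons. Rit1 fell there from 0.973 and 1 to 0.347 and 0.369, and Dclre1b from 0.873 and 0.960 to 0.273 and 0.238. Oip5, a component of the Mis18 complex that loads centromeric histone, fell from 0.866 and 0.916 to 0.216 and 0.373. Med4, a subunit of the Mediator complex, fell from 1 and 0.993 to 0.137 and 0.362, and on SPRET/EiJ from 1 to 0.838 on average. The chromatin remodeller gene Chd2 fell from 0.980 and 1 to 0.182 and 0.271, but its SPRET/EiJ values of 1 and 0.665 after pladienolide B were far apart. Libraries were also apart in Tbl2, where SPRET/EiJ was the lower allele, with 0.513 and 0.219. Among differences that shrank, Irf9, a transcription factor of the interferon response, had 0.236 and 0.257 against 0.589 and 0.513 in DMSO for an 86-bp exon (chr14:55604468-55604553). After pladienolide B the values were 0.0269 and 0.00780 against 0.0877 and 0.0678, so that both alleles lost the exon. Col6a3 stood first among these by size, but its 2 libraries after pladienolide B had opposite allelic differences.

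**Figure D3:**
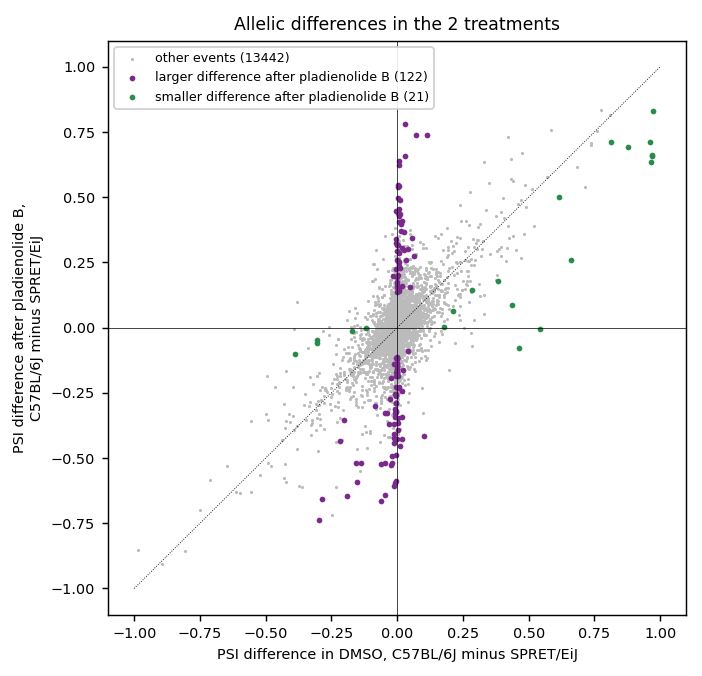
PSI difference between alleles (C57BL/6J minus SPRET/EiJ) in DMSO (x axis) and after pladienolide B (y axis) for the 13585 events with enough reads in both, with equal differences on the dotted line. Purple points are the 122 events with a larger difference after pladienolide B by the test on the PSI scale. That choice favours a small DMSO difference, and the points stand mostly in a vertical band at a DMSO difference near 0. Green points are the 21 events with a smaller difference after pladienolide B.

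**Figure D4:**
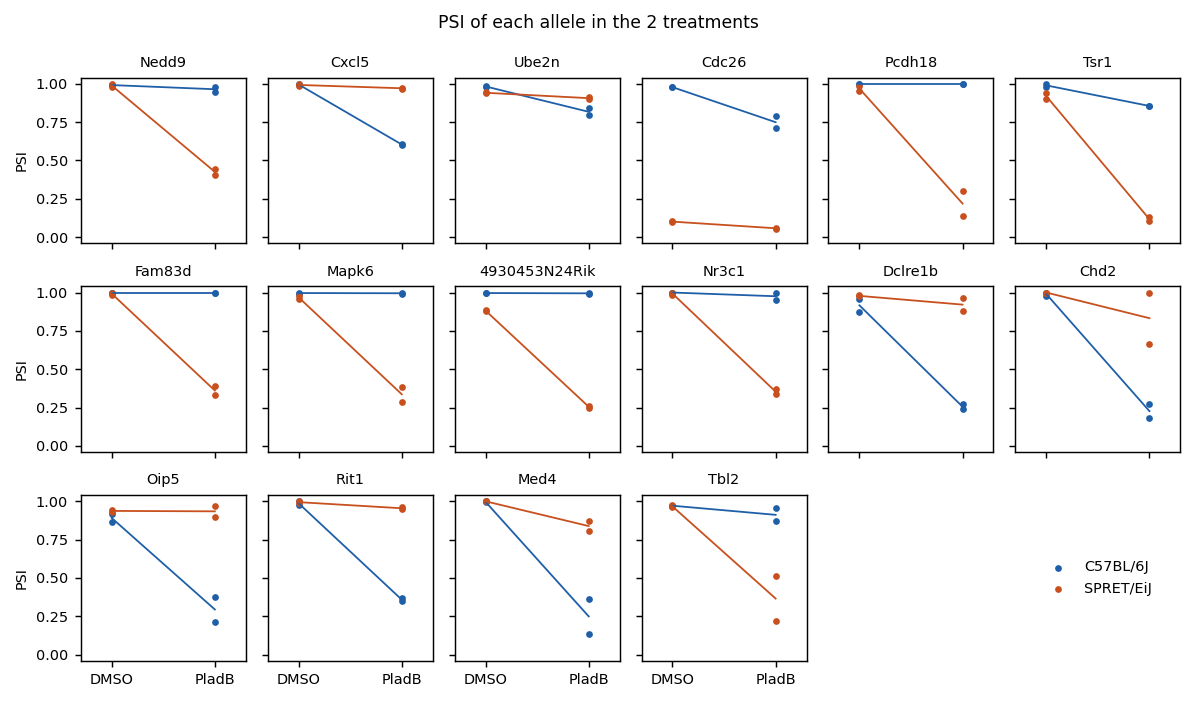
PSI (y axis) of the C57BL/6J allele (blue) and the SPRET/EiJ allele (orange) in DMSO and after pladienolide B (PladB) for 16 exons with a called interaction, with 1 point per library and lines through the means of 2 libraries. In most exons both alleles start near 1 and 1 of them falls further than the other, and Cdc26 starts with the alleles far apart.

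The other samples of the hybrid (cortex, heart, kidney, lung, spleen and liver, and embryonic stem cells, 2 libraries each) were measured in other libraries and did not enter the choice of exons. The strain labels of the liver libraries name another C57BL substrain in each, while their titles give the F1 hybrid. Of the called events, between 297 (liver) and 457 (embryonic stem cells) had enough reads in a given group. Between 35.0% (embryonic stem cells) and 47.7% (heart) of them differed by at least 0.1 in the same direction there. Of all analysed events, between 5.92% and 9.73% differed by at least 0.1 in either direction in these groups. Events called in both fibroblast treatments were carried over most, between 56.0% (liver) and 74.9% (lung). By that choice they differ by at least 0.1 without the compound too. Of the events whose difference grew after pladienolide B, between 11.4% (spleen) and 18.7% (embryonic stem cells) differed by at least 0.1 in the same direction. The choice of these favours a small difference without the compound, so the order of these shares partly follows from the choice. Of the 30 named exons 24 were measured in at least 1 of the 7 groups, and 15 of these differed by at least 0.1 in the same direction in every group measured. Mrps17 differed by 0.912 to 0.960, Tor1aip1 by -0.989 to -0.952 and Fut8 by 0.726 to 0.902. Pld3 differed less than in fibroblasts, by 0.216 to 0.370. Mgp, Rit1 and Pcdh18 stayed within 0.0390 of equal inclusion in the groups where they were measured.

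**Figure D5:**
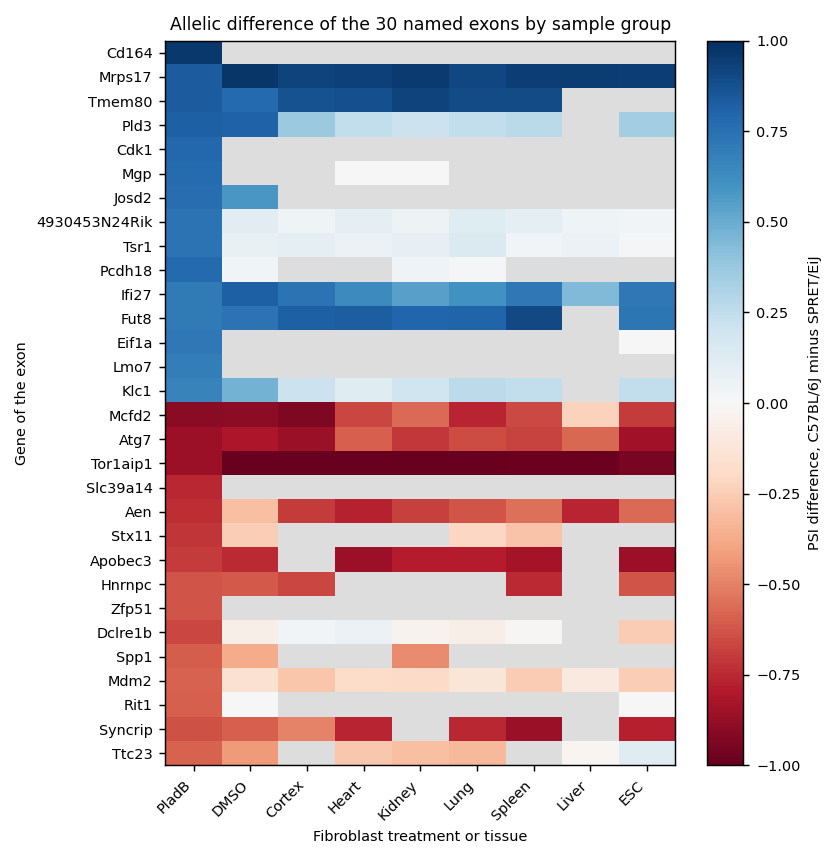
Allelic PSI difference (C57BL/6J minus SPRET/EiJ, colour scale from -1 to 1) of the 30 named exons (rows) in fibroblasts after pladienolide B and DMSO and in 7 other sample groups (columns), each a mean of 2 libraries, with grey where the reads were too few or the event was not listed. Rows such as Mrps17, Fut8, Tor1aip1 and Apobec3 keep one colour across the columns, while 4930453N24Rik, Tsr1, Pcdh18 and Rit1 are coloured mainly after pladienolide B.

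Called exons were then counted in 14 gene lists, beside 779 of 24110 exons over all genes (3.23%) and a median absolute difference of 0.0112 over all exons. The factors of splicing came first, because the compound binds one of them, the SF3B complex. In the core spliceosome list 13 of 272 exons were called (4.78%), 8 higher on C57BL/6J and 6 on SPRET/EiJ, with 1 exon counted in both directions for different events. They included 6 exons of Snrpa1, a protein of the U2 particle. Its 47-bp exon (chr7:66069167-66069213) had 0.921 and 1 against 0.379 and 0.392, and its 79-bp exon (chr7:66063767-66063845) had 0.955 and 0.914 against 0.545 and 0.466. Sf1, the branch point binding protein, had 0.491 and 0.578 against 1 and 0.967 for a 153-bp exon (chr19:6371267-6371419). Slu7, a factor of the second splicing step, had 0.629 and 0.653 against 0.914 and 0.946. For Snrpa1 and Sf1 the pooled allelic PSI lay 0.183 to 0.294 below that of all reads. Their better covered events were mixed: that of the 47-bp Snrpa1 exon differed by 0.00621 between alleles.

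Of 116 exons of SR proteins, Tra2 and their kinases 4 were called (3.45%), 2 in each direction. Tra2b, an SR-like activator of exons, had 0.957 and 0.944 against 0.452 and 0.337 for a 74-bp exon (chr16:22247190-22247263). A better covered event of this exon differed by 0.00756, and its pooled allelic PSI differed from that of all reads by -0.228. Clk1, a kinase of SR proteins, had 0.468 and 0.331 against 0.795 and 0.855 for a 95-bp exon (chr1:58414590-58414684), with all DMSO values at 0.997 or above. Of 195 exons of hnRNP genes 7 were called (3.59%), 3 higher on C57BL/6J and 4 on SPRET/EiJ. Hnrnpa1 had 0.946 and 0.916 against 0.501 and 0.507, but a pooled PSI of 0.639 against 0.169 in all reads. In Hnrnph3 the 2 within-library differences were far apart, with 1 and 0.783 against 0.344 and 0.460, and the pooled PSI differed from that of all reads by -0.283. In the list for nonsense-mediated decay and the exon junction complex 4 of 64 exons were called (6.25%), all with higher inclusion on SPRET/EiJ. They were 2 exons each of Upf3a, with 0.455 and 0.459 against 0.973 and 0.993 for the 107-bp exon (chr8:13786147-13786253), and of Rnps1, with 0.498 and 0.420 against 0.735 and 0.732 for the 181-bp exon (chr17:24418038-24418218). A better covered event of the Upf3a exon differed by -0.0251.

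Matrix and cytoskeletal genes, which fibroblasts express at high levels, had called exons too. Of 683 exons of extracellular matrix genes and their receptors 14 were called (2.05%), 11 higher on C57BL/6J and 4 on SPRET/EiJ, with 1 counted in both, and the median absolute difference over the 683 was 0.00154. Col16a1, a fibril-associated collagen, had 0.0137 and 0.00608 against 0.593 and 0.557 for a 100-bp exon (chr4:130049327-130049426), and a DMSO difference of -0.521. Col6a3, a chain of collagen VI, had 0.760 and 0.727 against 0.401 and 0.394 for a 603-bp exon (chr1:90821802-90822404). Postn, which encodes periostin, had 0.803 and 0.749 against 0.419 and 0.409 for an 84-bp exon, while a better covered event of it differed by -0.0516. Fbn1, which encodes fibrillin, had 0.372 and 0.617 against 0.978 and 0.996, with 6.09% of the reads on C57BL/6J, and a better covered event of this exon differed by 0.00409. Of 632 exons for the actin cytoskeleton and adhesion 12 were called (1.90%), 9 higher on C57BL/6J and 4 on SPRET/EiJ, with 1 counted in both. Besides Lmo7 they included Ctnnd1 (p120 catenin, 0.739 and 0.801 against 0.340 and 0.275), Pdlim5 and Myo10, and in each of the 4 genes a better covered event of the exon differed by less than 0.1.

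In the apoptosis and p53 list 10 of 116 exons were called (8.62%), 5 in each direction. Besides Mdm2 these included the death receptor Fas, with 0.970 and 0.954 against 0.593 and 0.603 for a 25-bp exon (chr19:34320561-34320585). Tnfrsf1a, a receptor of tumour necrosis factor, had 0.923 and 0.909 against 0.667 and 0.531 for a 29-bp exon (chr6:125361092-125361120), with DMSO values of 0.998 or more on both alleles. In the cell cycle and DNA repair list 22 of 484 exons were called (4.55%), 13 higher on C57BL/6J and 9 on SPRET/EiJ. Cenpa, the centromeric histone, had 0.493 and 0.511 against 0 and 0.00191 for a 137-bp exon (chr5:30669692-30669828), and differed by 0.617 in DMSO. Cdk9, the kinase that releases paused RNA polymerase, had 0.138 and 0.137 against 0.549 and 0.615. Of 414 exons of chromatin regulators 8 were called (1.93%), 7 of them higher on SPRET/EiJ. They included Chd2, Phf3 (-0.549 ± 0.191), Mbd1 (-0.419 ± 0.0156) and Hmga1 (0.255 ± 0.0515).

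The remaining lists held between 1.60% and 4.57% of called exons. In the ubiquitin system 16 of 665 exons were called (2.41%), 5 higher on C57BL/6J and 11 on SPRET/EiJ, 3 of them in the deubiquitinase gene Usp12. Its 79-bp exon (chr5:146739100-146739178) had 0.884 and 0.845 against 0.426 and 0.405 and lay at 0.995 or above on both alleles in DMSO. Another Usp12 exon, of 214 bp, was higher on SPRET/EiJ (-0.486 ± 0.181). Fbxw11 was called with SPRET/EiJ values of 0.351 and 1 that disagree. In vesicle traffic 16 of 999 exons were called (1.60%), 8 in each direction, with Ap3m1, a subunit of the adaptor complex AP-3, at -0.610 ± 0.110 (pooled minus all reads, -0.357) and the sorting nexin Snx19 at -0.401 ± 0.105. For mitochondria 20 of 596 were called (3.36%), 16 higher on C57BL/6J. Of these 5 were overlapping versions of the Mrps17 exon with the same start and other ends, which share their reads. In ribosome and translation genes 18 of 706 were called (2.55%), among them Rpl7l1, with 0.985 and 0.990 against 0.578 and 0.577 for a 138-bp exon (chr17:46779285-46779422) and 0.980 or more on both alleles in DMSO. The initiation factor Eif4a2 and the nucleolar Nol12 differed by 0.413 ± 0.111 and 0.309 ± 0.0189, and a better covered event of the Eif4a2 exon differed by -0.00883. Of 175 exons of C2H2 zinc finger genes 8 were called (4.57%), and 2 exons of Zfp110 differed in opposite directions, by 0.516 ± 0.0792 and -0.392 ± 0.0673.

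In 138 genes more than 1 exon was called, all in one direction in 101 and in both directions in 37. Exons were counted by their start and end, so that overlapping versions of an exon, which share reads, count apart. The 5 of Mrps17 are such versions, and how many other genes hold them was not counted. More than 3 exons were called in 7 genes: Abi3bp and Snrpa1 with 6 each, Mrps17 and Pvt1 with 5 each, and Bmpr1a, Hsd17b7 and Tsr1 with 4 each. All called exons of Mrps17, Bmpr1a and Tsr1 were higher on C57BL/6J.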

How the data were processed

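Strand-specific mRNA libraries were aligned by the authors with HISAT2 2.0.1 to the C57BL/6J genome (mm10) and a SPRET/EiJ genome, and each read was given to the better matching genome. rMATS counted inclusion and skipping junction reads per event on the Ensembl 74 annotation. The authors deposited these as lists of read counts, not normalized, with both replicates in one cell, and the effective lengths of both forms, a score that rMATS writes. The deposited TPM values were made by the authors from all reads. The deposited p-values, FDR and inclusion levels of rMATS were not used. Position in the list was read as the replicate number. The number of columns of values left without a sample was 0.

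PSI was recomputed as inclusion reads per inclusion length over the sum of both forms per length. Reads were fitted per event with a quasi-binomial model in Python 3.11.15 (numpy 2.4.6, scipy 1.17.1, pandas 2.3.3). The dispersion was at least 1 and was moderated with limma 3.58.1 in R 4.3.3 toward a depth-dependent prior (spline of 4 degrees of freedom), taken from events with 10 or more reads of the rarer form. Cells with a fitted count of the rarer form under 1 gave no residual degree of freedom, and 45 events with a spread far above the prior kept their own. This is the third form of the model: 3 forms were fitted to the real data and their calls seen before the last one was tested on simulated data. Both alleles of a library come from the same culture, so the same replicate number pairs them by design. The replicate differences of the alleles had r = 0.0438 after pladienolide B and 0.0646 after DMSO over events. As in the study, no block was used. Nothing in the labels says that the 2 libraries came from separate cultures, so p-values measure the spread between these libraries, which may be technical.

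Members, gene lists and tests were chosen with earlier results of these data known. The patterns of the chromatin and cell cycle lists were corrected after the data were seen, to take out genes with similar symbols but other roles. Not all such genes were removed: Cdk9, a kinase of transcription, stayed in the cell cycle list and its counts. Exons were named by a rule: called, with both alleles not overlapping, 1 event per exon, ranked by the smaller within-library difference, 15 per direction with 1 exon per gene, and up to 4 per list. From the interaction up to 6 genes per direction were named, and on the PSI scale 12 with a growing and 6 with a shrinking difference, chosen after the data were seen. The values of 1 exon with a called interaction are not reported here. A few further genes were named for their number of called exons. Of 6660 genes 6287 were found in the RefSeq table (GRCm38.p6), which marked 99.6% of them as protein-coding. Whether an exon is coding or untranslated was not analysed here.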

Additional observations from a re-analysis of the deposited data

Results flagged for a closer look

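These exons were called for an allelic difference that changed between DMSO and pladienolide B, by the test of the interaction itself. The test on the PSI scale was chosen after the data were seen, and limma on the log2 odds called 0 events. Each value is the change in PSI difference (C57BL/6J minus SPRET/EiJ, pladienolide B minus DMSO), from 2 libraries per treatment. On the odds scale the change was 0.54 for Nedd9, -0.37 for Cxcl5 and -0.13 for Ube2n. It was -0.19 for Cdc26, where the alleles came closer. On the PSI scale alone it was 0.75 for Pcdh18, 0.67 for Tsr1, 0.63 for Fam83d and Mapk6, 0.62 for 4930453N24Rik and Nr3c1 and 0.54 for Tbl2, where the SPRET/EiJ allele was lower after pladienolide B. It was -0.60 for Dclre1b and Chd2 and -0.59 for Oip5, Rit1 and Med4, where the C57BL/6J allele was lower. The absolute difference shrank in Col6a3 (-0.55), Abi3bp (-0.35), another version of the Mrps17 exon (-0.33), Slu7 (0.29), Pet112 (0.26) and Irf9 (0.24). The within-library differences after pladienolide B were apart by more than 0.4 in Chd2 and Col6a3.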

How the results depend on the processing

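The number of events called after pladienolide B, 830 of 29742, ranged from 591 to 1039 under other settings, within 1.5 times. These were the other read minimums, priors, filters and PSI definitions, the replicate block and the test on the PSI scale. The number of events tested changed as well. The 591 were of 24110 with 1 event per exon, and the 1039 of 6786 without events near PSI 0 or 1. Fewer were called with limma (271) and with thinned reads on the shared events (146). Leaving out a library gave 336 to 406 on the shared events, and the remaining library then has no replicate of its own. After DMSO, 755 became 474 in the joint fit, 470 on the shared events alone, 99 with thinned reads, 365 with limma and 330 to 362 without a library. The 5 interaction calls became 12 with the replicate block, 9 without events near PSI 0 or 1, 3 without division by length, 2 with a prior without depth trend, 1 with 50 reads, 1 with thinned reads and 0 with limma. They were 1 to 5 without a library. On the PSI scale 143 events were called, 123 with thinned reads, 132 and 154 without DMSO replicate 1 and 2, and 104 and 73 without PladB replicate 1 and 2. The median absolute difference of 0.0119 after pladienolide B was 0.0158 with 10 reads, 0.00735 with 50 reads and 0.0795 without events near PSI 0 or 1. It was 0.00742 without division by length and 0.00850 to 0.0112 without a library. That of 0.00685 after DMSO was 0.00741, 0.00569, 0.0761, 0.00424 and 0.00641 to 0.00643 under the same settings. Reads were thinned on the shared events only. There the median went from 0.0138 to 0.0142 after pladienolide B and from 0.00560 to 0.00540 after DMSO. The cause of these shifts was not tested. Limma, the shared events alone, the PSI scale and the tests on thinned reads were added after the data were seen.

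With the replicate block, which pairs the alleles of a library, 839 events were called after pladienolide B, 818 of them among the 830, and 769 after DMSO. Of the named exons all 91 stayed on their side of the threshold with the block. Without division by length PSI differences moved by more than the replicate SD in 64 of these 91, and the Col6a3 exon whose libraries disagree went from -0.00637 to 0.0163. The planned edgeR alternatives were not run, because the counts are deposited as lists of 2 values in a cell. Reads limit rare forms most: intervals and limits cover counting error only.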
